A study of Canis lupus familiaris with 69 samples.

Results

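The ADAM, ADAMTS and ADAMTSL genes were described in the endometrium of 69 female dogs. The members were all genes whose symbol in the platform annotation is ADAM, ADAMTS or ADAMTSL followed by a number. They numbered 42 of the 15947 genes measured, with 18 in the ADAM family, 19 in the ADAMTS family and 5 in the ADAMTSL family. The rule uses the symbol alone, and for a gene with several probe sets the one of highest mean was read. RNA was hybridised to Affymetrix Canine Gene 1.0 ST arrays, 1 array per dog, in 21 healthy dogs with a normal uterus in diestrus, 16 dogs with cystic endometrial hyperplasia (CEH), 15 dogs with mucometra and 17 dogs with pyometra. Diestrus follows estrus and is dominated by progesterone from the corpora lutea. In CEH the endometrium thickens and its glands become cystic, in mucometra sterile mucus distends the uterus, and in pyometra the uterus is infected and holds pus.

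The diagnosis came from the sample titles. Another label calls the mucometra samples hemometra, and the titles were followed. The study's methods state that the normal samples came from early diestrus, that the dogs with lesions were older, that some of them were in anestrus and that many dogs with pyometra had been given progesterone-like compounds. Treatment, cervix condition, cycle stage and age are not given dog by dog in the labels, so no comparison within pyometra by treatment or cervix was made, and the part of these differences in the results below was not tested. The luminal exudate was left out of the tissue by the authors.

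ADAMs are membrane proteins with a metalloprotease and a disintegrin domain, and those that keep the zinc-binding active site cut the outer parts off other membrane proteins such as cytokines, growth factors and adhesion molecules. ADAMTS proteins are secreted, carry thrombospondin type repeats and cut proteins of the extracellular matrix, mainly proteoglycans and procollagens. ADAMTSL proteins resemble the ADAMTS tail without the protease domain and bind to the matrix, several of them to fibrillin microfibrils. In the mammalian uterus and ovary, matrix turnover by such enzymes accompanies the cycle, and Adamts1 of the mouse is known for its role in ovulation.

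Values are log2 levels from robust multi-array analysis (RMA), so a difference of 1 is a 2-fold change. Each comparison was a limma fit, a linear model over all 15947 genes, and adjusted p refers to its Benjamini-Hochberg value. Genes at least 2-fold apart with an adjusted p under 0.05 were called changed. Log2 fold changes are given with their standard error (SE). Comparisons against diestrus share the same 21 dogs, so they are not independent of each other. The array reports the signal of a probe set, so levels were compared between dogs and not between genes.

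Array medians ran from 6.2 to 6.34, and markers of epithelium and stroma were present. KRT18, a keratin of simple epithelium, lay between 9.24 and 12.56 in the 69 dogs, and DCN, the stromal proteoglycan decorin, between 9.65 and 12.12, against a median of 7.05 over the means of all genes. MYH11, the myosin heavy chain of smooth muscle, varied more, with dogs between 5.92, under that median, and 11.93. The dog with pyometra of case number 100 and the dog with mucometra of case number 216 had the most similar pair of arrays. Their Pearson correlation across the 15947 genes was 0.9928, against 0.9889 for the next pair. Dogs 100 and 216 had identical values in 536 of the 32391 probe sets and in 0 of the 42 members. Over the members their median absolute difference was 0.145. Between dog 100 and the other 16 dogs with pyometra it was at least 0.245, with a median of 0.36. Why these 2 arrays are so alike was not tested. Every member called below was called again without dogs 100 and 216.

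Of the members, 19 had a mean signal above the median of all genes' means, 7 ADAM, 9 ADAMTS and 3 ADAMTSL genes, and 11 lay among the lowest 25%, 8 ADAM and 3 ADAMTS genes. Among the low ADAM genes were ADAM7, ADAM18 and ADAM29, known from testis and epididymis, with dogs at 3.95 or less, 4.4 or less and 3.19 or less. The probe sets of highest mean signal were those of ADAM10, ADAM9 and ADAM17 in the ADAM family, ADAMTS1, ADAMTS9 and ADAMTS5 in the ADAMTS family, and ADAMTSL1, ADAMTSL3 and ADAMTSL4 in the ADAMTSL family. Such signals depend on the probes and do not rank genes by their amount of RNA. Over the 4 diagnoses, 37 of the 42 members differed by limma's F test with an adjusted p under 0.05 and no fold minimum, against 66.3% of all genes. They were 15 of 18 ADAM, 18 of 19 ADAMTS and 4 of 5 ADAMTSL genes. The means of these 37 were highest in pyometra for 17, in CEH for 10, in mucometra for 7 and in diestrus for 3. They were lowest in diestrus for 16, in pyometra for 15, in CEH for 4 and in mucometra for 2. ADAM7, ADAM18, ADAM29, ADAMTS18 and ADAMTSL2 did not pass.

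At the 2-fold threshold, 14 members were called in at least 1 of the 7 comparisons made between diagnoses, 33.3% of the 42 against 12.9% of all genes. They were 4 of 18 ADAM genes (ADAM19, ADAM22, ADAM28 and ADAM33), 8 of 19 ADAMTS genes (ADAMTS1, ADAMTS2, ADAMTS5, ADAMTS6, ADAMTS12, ADAMTS16, ADAMTS17 and ADAMTS19) and 2 of 5 ADAMTSL genes (ADAMTSL1 and ADAMTSL3). The other 28 had log2 fold changes between -0.56 for ADAMTS15 and 0.84 for ADAM12 over all these comparisons. The counts of called members by family were not tested against each other. Many members differed by less than 2-fold. With an adjusted p under 0.05 and no fold minimum, 31 of 42 passed in pyometra against all other dogs (49.5% of all genes), 28 against diestrus (51.3%), 22 against mucometra (35.5%) and 31 against CEH (39.5%). Against diestrus 18 passed so in CEH (26.3% of all genes) and 23 in mucometra (47.1%).

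**Figure D1:**
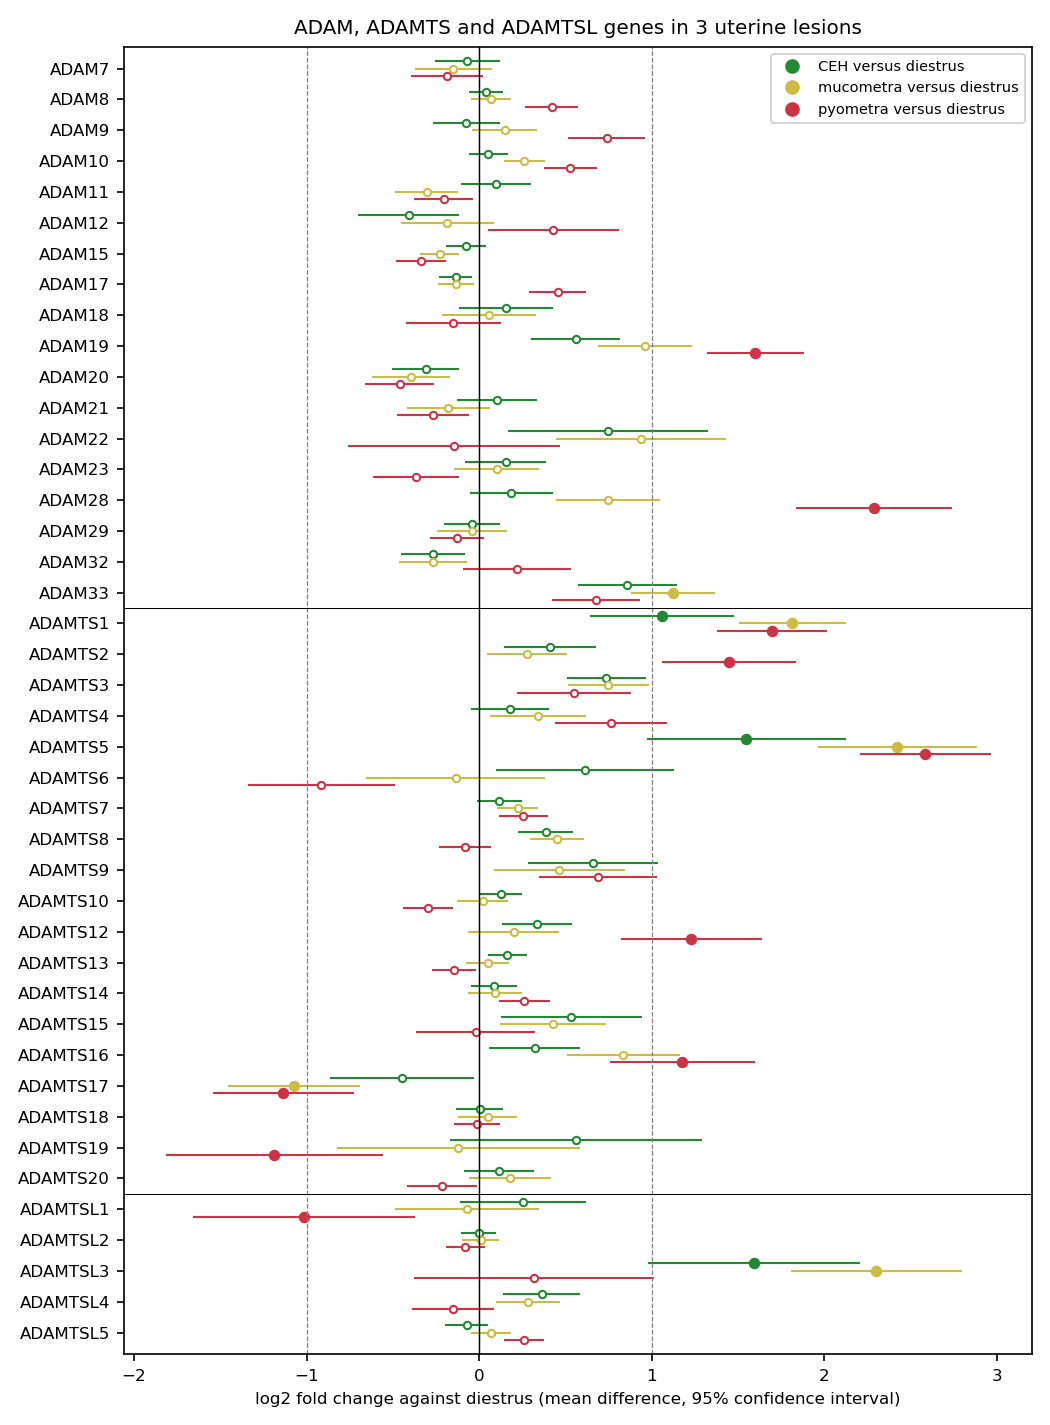
Log2 fold change of each of the 42 members in CEH, mucometra and pyometra against the 21 dogs in diestrus, with the 95% confidence interval as a line. Filled points passed the threshold (2-fold, dashed lines, and adjusted p under 0.05) and open points did not. ADAMTS1 and ADAMTS5 are filled in all 3 lesions, ADAMTSL3 in CEH and mucometra, and ADAM28 and ADAM19 in pyometra.

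Compared with diestrus, 3 of the 42 members rose in CEH and 0 fell, at a background of 1.82% of all genes called (0.865% higher and 0.953% lower). In mucometra 4 rose and 1 fell, at a background of 6.35% (3.56% higher and 2.8% lower). ADAMTS1, ADAMTS5 and ADAMTSL3 rose in both of these lesions without pus. ADAM33 rose and ADAMTS17 fell past the threshold in mucometra. In CEH 18 of the 19 ADAMTS genes had a positive log2 fold change, with a family median of 0.34 against 0.05 for ADAM genes and -0.01 for all genes. In mucometra 16 of 19 were positive, with a median of 0.22 against 0.01 for ADAM genes and -0.01 for all genes. In pyometra against diestrus 10 of 19 were positive. Of all genes 48.5% were positive in CEH, 49.1% in mucometra and 42.8% in pyometra.

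ADAMTS5 (probe set 14385623), an aggrecan- and versican-cleaving protease, ran from 5.48 to 7.59 in diestrus with a median of 6.81. In CEH it ran from 6.64 to 10.44 with a median of 8.39, in mucometra from 7.15 to 10.13 with a median of 9.62, and in pyometra from 8.31 to 10.5 with a median of 9.57. All 17 dogs with pyometra lay above all 21 dogs in diestrus, as did 14 of 15 with mucometra and 11 of 16 with CEH. The log2 fold changes against diestrus were 1.55 (SE 0.285, adjusted p = 3e-04) in CEH, 2.42 (SE 0.227, adjusted p = 1.57e-10) in mucometra and 2.59 (SE 0.187, adjusted p = 3.02e-14) in pyometra. Pyometra and mucometra did not differ past the threshold, with a difference of 0.16 and a 95% confidence interval from -0.35 to 0.67.

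ADAMTS1 (probe set 14385612), which cleaves versican and aggrecan, ran from 7.65 to 9.22 in diestrus with a median of 8.24. It ran from 7.73 to 10.63 in CEH with a median of 9.51, from 8.78 to 10.74 in mucometra with a median of 10.32, and from 9 to 11.38 in pyometra with a median of 9.92. The dogs with CEH spread over the range of both diestrus and mucometra, while 14 of 15 dogs with mucometra and 16 of 17 with pyometra lay above all dogs in diestrus. The log2 fold changes against diestrus were 1.06 (SE 0.207, adjusted p = 0.00046) in CEH, 1.81 (SE 0.153, adjusted p = 3.25e-11) in mucometra and 1.70 (SE 0.158, adjusted p = 1.64e-11) in pyometra. Between pyometra and mucometra the difference was -0.12, with an interval from -0.50 to 0.27. ADAMTS1 and ADAMTS5 are direct neighbours in the RefSeq annotation of the assembly UU_Cfam_GSD_1.0, with 0 protein-coding genes between them.

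The other 5 measured ADAMTS proteoglycanases did not reach 2-fold in any comparison. ADAMTS9, a versican-cleaving protease, had medians of 7.92 (diestrus), 8.435 (CEH), 8.37 (mucometra) and 8.84 (pyometra), with overlapping ranges. Its log2 fold changes against diestrus were 0.66, 0.46 and 0.69 (adjusted p = 0.00839, 0.0396 and 0.000754). The second probe set of ADAMTS9 gave 0.53, 0.19 and 0.55. ADAMTS4, the other well-studied aggrecan-cleaving enzyme, was higher in pyometra than in diestrus by 0.76 (SE 0.161, adjusted p = 0.00012). Its log2 fold changes were 0.18 (adjusted p = 0.247) in CEH and 0.34 (adjusted p = 0.0394) in mucometra. ADAMTS8 was higher by 0.39 in CEH and 0.45 in mucometra (adjusted p = 0.000676 and 9.22e-06) and had a log2 fold change of -0.08 in pyometra. It lay below mucometra in pyometra, with a difference of -0.53 (SE 0.107, adjusted p = 0.000439) and with 11 of 17 dogs with pyometra under all 15 dogs with mucometra. ADAMTS15, the neighbour of ADAMTS8 in the annotation, was higher than in diestrus by 0.53 in CEH and 0.43 in mucometra (adjusted p = 0.0451 and 0.0181). Its log2 fold change in pyometra was -0.02. Neither ADAMTS15 nor ADAMTS20 was called in any comparison.

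ADAMTSL3 (probe set 14375158), a protein of the matrix with no protease domain, ran from 6.19 to 9.14 in diestrus with a median of 7.82. It ran from 6.46 to 10.79 in CEH with a median of 9.57, from 8.95 to 11.43 in mucometra with a median of 10.19, and from 5.23 to 10.69 in pyometra with a median of 7.5. The medians of CEH and mucometra were high, and the dogs with pyometra covered nearly the whole span of the other groups. The log2 fold changes against diestrus were 1.59 (SE 0.303, adjusted p = 0.000387) in CEH, 2.30 (SE 0.245, adjusted p = 2.11e-09) in mucometra and 0.32 (SE 0.343, adjusted p = 0.462) in pyometra, the last with an interval from -0.38 to 1.01. Compared directly, pyometra lay below mucometra by 1.98 on the log2 scale (SE 0.387, adjusted p = 0.000344), with 11 of 17 dogs under all 15 dogs with mucometra, and below CEH by 1.28 (SE 0.43, adjusted p = 0.0178). The difference from CEH had an adjusted p of 0.32 with case number, the running number in the sample titles, as a covariate.

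ADAM33 (probe set 14347977), a membrane protease of mesenchymal cells known in humans for its link to asthma, ran from 6.26 to 7.28 in diestrus with a median of 6.79 and from 7.01 to 8.73 in mucometra with a median of 7.9. Of the 15 dogs with mucometra 13 lay above all dogs in diestrus, and the log2 fold change was 1.12 (SE 0.12, adjusted p = 2.28e-09). In CEH it was 0.86 (SE 0.141, adjusted p = 0.00017) and in pyometra 0.68 (SE 0.126, adjusted p = 2.15e-05), both short of 2-fold. ADAM22 (probe set 14290397), a receptor that has lost the active site and binds LGI1 in the brain, ran from 6.78 to 10.28 in diestrus and from 7.24 to 9.52 in mucometra, with medians of 7.28 and 8.32, and mucometra was higher by 0.94 (SE 0.243, adjusted p = 0.00158). In pyometra it ran from 5.44 to 8.82 with a median of 7.63, and it was lower there than in mucometra by 1.08 on the log2 scale (SE 0.325, adjusted p = 0.0102). The mean of its 2 probe sets gave -0.84 for that comparison, under 2-fold.

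**Figure D2:**
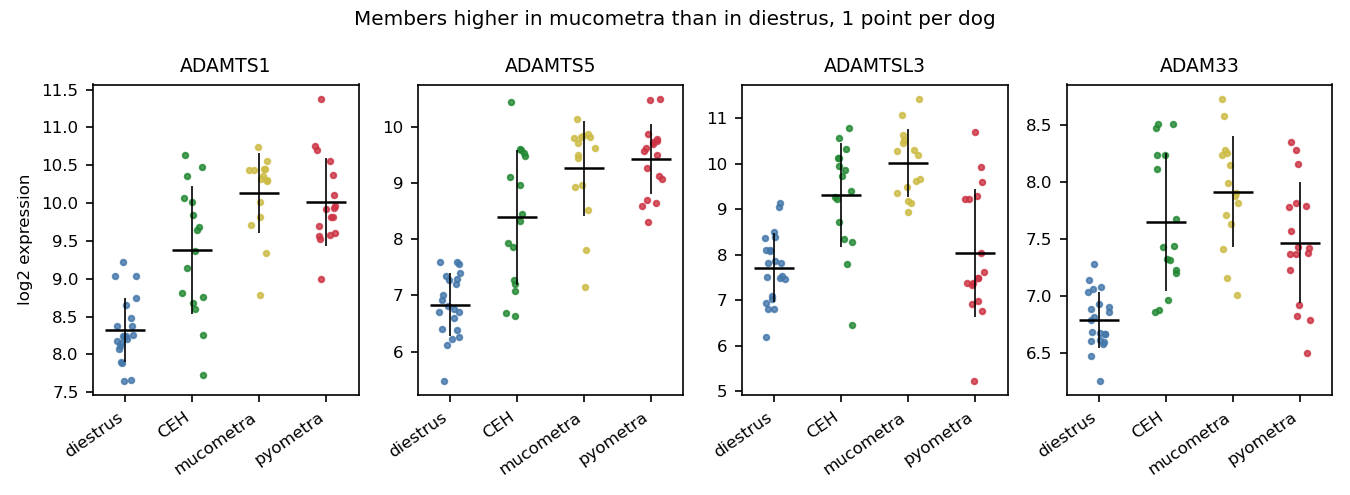
Log2 level of ADAMTS1, ADAMTS5, ADAMTSL3 and ADAM33 in each dog, by diagnosis, each panel with its own axis. Horizontal lines are group means and vertical lines 1 SD to either side. In ADAMTS1 and ADAMTS5 mucometra and pyometra lie together above diestrus, and in ADAMTSL3 the dogs with pyometra spread from 5.23 to 10.69.

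Stromal markers were also higher on average in these lesions. The mean of 10 stromal fibroblast markers, each set against its own mean of the 69 dogs, was -0.45 ± 0.35 (SD, n = 21) in diestrus, 0.06 ± 0.38 (SD, n = 16) in CEH, 0.15 ± 0.22 (SD, n = 15) in mucometra and 0.37 ± 0.40 (SD, n = 17) in pyometra. Single dogs ran from -1.25 to 0.02, -1.01 to 0.58, -0.31 to 0.59 and -0.37 to 0.94 in the same order. Of these 10 markers 0 were called in CEH, 2 in mucometra and 5 in pyometra against diestrus, all of them higher. Of all genes 0.865%, 3.56% and 6.72% were called higher. Log2 fold changes were positive for 9 of the 10 in CEH, 8 in mucometra and 7 in pyometra. The lowest were -0.62 in mucometra and -0.31 in pyometra. In mucometra 1 marker was lower with an adjusted p under 0.05. The mean of 10 markers of simple epithelium was 0.28 for diestrus, -0.19 for CEH, -0.12 for mucometra and -0.06 for pyometra, and that of 9 smooth muscle markers -0.33, 0.23, 0.23 and -0.02. The 10 endothelial markers had means of -0.37, 0.01, 0.02 and 0.43, and the 8 measured cell cycle genes 0.35, -0.37, -0.87 and 0.69. In such bulk samples fewer cells of a type and less RNA per cell cannot be told apart, and the part of these shifts in the member results was not tested.

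No member passed the threshold between mucometra and CEH. With limma 0 of 42 were called, at a background of 0.144% of all genes called (0.138% higher and 0.00627% lower). Without a fold minimum 0 passed an adjusted p under 0.05, against 1.43% of all genes, and 14 had an unadjusted p under 0.05. The log2 differences of mucometra from CEH were 0.87 for ADAMTS5 (95% confidence interval 0.14 to 1.60), 0.75 for ADAMTS1 (0.25 to 1.25), -0.75 for ADAMTS6 (-1.39 to -0.11) and 0.71 for ADAMTSL3 (0.02 to 1.39). These were the 4 widest differences among the 42 members, with adjusted p between 0.0872 and 0.222.

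In pyometra, 7 members rose and 3 fell against diestrus, at a background of 9.98% of all genes called (6.72% higher and 3.26% lower). ADAM19, ADAM28, ADAMTS1, ADAMTS2, ADAMTS5, ADAMTS12 and ADAMTS16 rose, and ADAMTS17, ADAMTS19 and ADAMTSL1 fell. Against the 52 dogs of the other 3 groups together, 5 rose (ADAM19, ADAM28, ADAMTS2, ADAMTS5 and ADAMTS12) and 3 fell (ADAMTS6, ADAMTS19 and ADAMTSL1), at a background of 5.84%. Rises among all genes made up 4.37% and falls 1.47% in that comparison. The median log2 fold change against diestrus was 0.04 for ADAM, 0.26 for ADAMTS and -0.08 for ADAMTSL genes, against -0.05 for all genes.

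ADAM28 (probe set 14356154), known in humans as a metalloprotease of lymphocytes, had the largest fold change of the members in pyometra against the other dogs. It ran from 4.29 to 5.54 in diestrus with a median of 4.82, from 4.6 to 5.74 in CEH with a median of 4.88, from 4.3 to 6.51 in mucometra with a median of 5.61, and from 5.61 to 9.28 in pyometra with a median of 7.11. All 17 dogs with pyometra lay above all dogs in diestrus and 12 of 17 above all 52 other dogs. The log2 fold change was 2.01 (SE 0.181, adjusted p = 1.84e-14) against the other dogs and 2.28 (SE 0.223, adjusted p = 5.34e-11) against diestrus. It was 1.54 (SE 0.273, adjusted p = 0.00017) against mucometra alone and 2.10 (SE 0.249, adjusted p = 2.34e-07) against CEH alone. In mucometra ADAM28 was higher than in diestrus by 0.75 (SE 0.148, adjusted p = 7.3e-05), and in CEH by 0.19 (adjusted p = 0.255).

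ADAM28 lies in the annotation beside ADAMDEC1, a related soluble protease of macrophages and dendritic cells, and ADAM7, with 0 protein-coding genes between neighbours. ADAMDEC1, outside the 42 members, had medians between 2.71 and 2.835 in the other 3 groups, and in pyometra it ran from 2.52 to 8.65 with a median of 5.67. It rose in pyometra by 3.06 against diestrus (SE 0.422, adjusted p = 1.07e-07). ADAM7, on the other side of ADAMDEC1, had medians of 2.93 in diestrus and 2.75 in pyometra and a log2 fold change of -0.19.

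ADAM19 (probe set 14404368), which processes neuregulins in the mouse, ran from 6.37 to 7.29 in diestrus with a median of 6.63 and from 7.3 to 9.47 in pyometra with a median of 8.35. Its ranges did not overlap between these 2 groups, and its medians in CEH and mucometra, 7.4 and 7.68, lay between. The log2 fold changes against diestrus were 0.56 (SE 0.128, adjusted p = 0.00178) in CEH, 0.96 (SE 0.134, adjusted p = 2.72e-07) in mucometra and 1.60 (SE 0.138, adjusted p = 2.42e-12) in pyometra. Against CEH pyometra was higher by 1.04 (SE 0.184, adjusted p = 4.45e-05), and against mucometra by 0.64 (SE 0.191, adjusted p = 0.00981), short of 2-fold.

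ADAM8, ADAM9, ADAM10 and ADAM17 were higher in pyometra than in the other dogs by less than 2-fold. ADAM17, which releases tumor necrosis factor, ran from 7.86 to 8.39 in diestrus, from 7.83 to 8.34 in CEH, from 7.84 to 8.42 in mucometra and from 8.19 to 9.48 in pyometra, and 13 of 17 dogs with pyometra lay above all 52 others. It was higher in pyometra than in the other dogs by 0.54 (SE 0.0613, adjusted p = 4.27e-11). ADAM9 was higher by 0.72 (SE 0.0861, adjusted p = 1.83e-10), ADAM10, which cleaves Notch receptors and cadherins, by 0.44 (SE 0.0641, adjusted p = 5.09e-08) and ADAM8, a protease of leukocytes, by 0.39 (SE 0.0583, adjusted p = 8.53e-08). ADAM12 was higher by 0.61 (SE 0.142, adjusted p = 0.000276), with dogs with pyometra between 5.94 and 8.56. Against diestrus alone ADAM12 had 0.43 (adjusted p = 0.0541). ADAM15 was lower by 0.25 on the log2 scale (SE 0.0596, adjusted p = 0.000373).

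Of the 11 measured ADAM genes known as active proteases in mammals, 2 were called higher and 0 lower in pyometra against the other dogs, with a median log2 fold change of 0.44. Of the 7 without the zinc-binding motif in mammals, ADAM7, ADAM11, ADAM18, ADAM22, ADAM23, ADAM29 and ADAM32, 0 were called in that comparison, with a median of -0.15. ADAM23 was lower in pyometra by 0.44 (SE 0.0958, adjusted p = 9.03e-05), and ADAM32 was higher by 0.38 (SE 0.111, adjusted p = 0.00358), with 1 dog at 7.42 and the next at 6.08. Against diestrus alone they had -0.37 (adjusted p = 0.0121) and 0.22 (adjusted p = 0.243). Of all genes 5.84% were called in that comparison (4.37% higher and 1.47% lower), and with so few genes nothing was read from the difference between 2 of 11 and 0 of 7. The motif was taken from general knowledge of mammals and not read from dog sequences.

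ADAMTS2 (probe set 14273819), which removes the amino-terminal propeptide of fibrillar procollagens and is known in several species for a disorder of fragile skin, ran from 7.11 to 8.2 in diestrus with a median of 7.61. It ran from 7.25 to 8.97 in CEH with a median of 7.975, from 7.4 to 8.74 in mucometra with a median of 7.76, and from 7.33 to 10.39 in pyometra with a median of 8.97. The other 3 groups overlapped widely, and 8 of 17 dogs with pyometra lay above all of them. The log2 fold change was 1.24 (SE 0.154, adjusted p = 5.88e-10) against the other dogs and 1.45 (SE 0.191, adjusted p = 4.35e-08) against diestrus, and it passed the threshold against mucometra (1.17, SE 0.229) and CEH (1.04, SE 0.237) as well.

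Both other procollagen propeptidases stayed under 2-fold. ADAMTS3, which also processes the lymphatic growth factor VEGFC, had medians of 5.53 (diestrus), 6.155 (CEH), 6.21 (mucometra) and 6.17 (pyometra) and log2 fold changes against diestrus of 0.74, 0.75 and 0.55 (adjusted p = 0.000146, 1.63e-06 and 0.0046). ADAMTS14 had 0.26 in pyometra (SE 0.0723, adjusted p = 0.00247) and 0.08 and 0.09 in CEH and mucometra.

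ADAMTS12 (probe set 14405359), which cleaves cartilage oligomeric matrix protein, ran from 5.42 to 6.45 in diestrus, from 5.76 to 6.9 in CEH and from 5.61 to 7.92 in mucometra, with medians of 5.96, 6.29 and 6.09. In mucometra 14 of 15 dogs lay at 6.38 or less and 1 at 7.92. In pyometra it ran from 5.78 to 8.83 with a median of 7.11, and 13 of 17 dogs lay above all dogs in diestrus. The log2 fold change was 1.07 (SE 0.158, adjusted p = 5.48e-08) against the other dogs and 1.23 (SE 0.202, adjusted p = 2.8e-06) against diestrus. The second probe set of the gene gave 0.82 and 0.92. The mean of both probe sets gave 1.08 against diestrus, still past the threshold, and 0.94 against the other dogs and 0.88 against mucometra, both short of 2-fold. ADAMTS7, the other member known to cleave that protein, had a log2 fold change of 0.16 against the other dogs.

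ADAMTS16 (probe set 14392651), studied in rats for its effect on blood pressure, had medians of 5.72 (diestrus), 5.905 (CEH), 6.35 (mucometra) and 6.92 (pyometra). The dogs with pyometra ran from 5.37 to 8.68, of whom 11 of 17 lay above the 6.29 that was highest in diestrus. It rose in pyometra by 1.18 against diestrus (SE 0.209, adjusted p = 9.52e-06) and had 0.83 (SE 0.162, adjusted p = 5.35e-05) in mucometra and 0.32 (adjusted p = 0.0621) in CEH. Its sequence relative ADAMTS18 had 0 calls, with medians between 4.72 and 4.82 in the 4 groups.

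ADAMTS5 rose in pyometra against the other 52 dogs by 1.41 (SE 0.332, adjusted p = 3e-04) and against CEH by 1.04 (SE 0.315, adjusted p = 0.00897). Only 2 of 17 dogs lay above all 52. The medians of mucometra and pyometra were alike, at 9.62 and 9.57, with the lowest dogs at 7.15 and 8.31. With case number as a covariate the difference from CEH had an adjusted p of 0.061.

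ADAMTS17 (probe set 14374689), known in dogs for primary lens luxation, fell in mucometra and in pyometra. It ran from 6.43 to 9.07 in diestrus with a median of 7.61, from 6.06 to 8.17 in CEH with a median of 7.45, from 5.99 to 7.87 in mucometra with a median of 6.46, and from 5.52 to 7.64 in pyometra with a median of 6.46. The ranges of all groups overlapped. The log2 fold change against diestrus was -1.07 (SE 0.188, adjusted p = 1.24e-05) in mucometra, -1.13 (SE 0.203, adjusted p = 1.07e-05) in pyometra and -0.45 (SE 0.206, adjusted p = 0.105) in CEH. With case number as a covariate both log2 fold changes were short of 2-fold, at -0.95 and -0.92.

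ADAMTS19 (probe set 14274287), the closest relative of ADAMTS17, known in humans and mice from heart valves, fell in pyometra and not in mucometra or CEH. It ran from 6.18 to 10.71 in diestrus with a median of 7.12, from 5.93 to 10.69 in CEH with a median of 7.75, from 5.7 to 10.05 in mucometra with a median of 6.89, and from 4.54 to 8.38 in pyometra with a median of 5.98. Each of the 4 groups had 1 or 2 dogs well above the rest, such as the dog in diestrus at 10.71 with the next at 9.07. The log2 fold change in pyometra was -1.32 (SE 0.299, adjusted p = 0.000171) against the other dogs, -1.19 (SE 0.311, adjusted p = 0.00149) against diestrus, -1.06 (SE 0.346, adjusted p = 0.0166) against mucometra and -1.75 (SE 0.364, adjusted p = 0.000297) against CEH. With case number as a covariate the difference from diestrus was -0.68, with an adjusted p of 0.292.

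ADAMTS6 (probe set 14324829), a relative of ADAMTS10 with roles in the fibrillin matrix, fell in pyometra against the other dogs by 1.06 on the log2 scale (SE 0.226, adjusted p = 7.05e-05). It ran from 7.21 to 9.56 in diestrus with a median of 8.32, from 7.14 to 9.94 in CEH with a median of 9.01, from 5.99 to 9.52 in mucometra with a median of 8.29, and from 6.05 to 8.28 in pyometra with a median of 7.51. No dog with pyometra exceeded 8.28, a level that 13 of 16 dogs with CEH exceeded. The difference from CEH was -1.53 (SE 0.265, adjusted p = 3.61e-05), and those from diestrus and mucometra, -0.91 and -0.78 (adjusted p = 0.000376 and 0.0226), stayed short of 2-fold. ADAMTS10 itself was lower in pyometra than in the other dogs by 0.34 on the log2 scale (SE 0.0606, adjusted p = 2.91e-06). ADAMTS13, which cleaves von Willebrand factor in the blood, was lower there by 0.21 (SE 0.0542, adjusted p = 0.000886). Against diestrus alone ADAMTS13 had -0.15 (adjusted p = 0.0534). It was not called in any comparison.

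ADAMTSL1 (probe set 14274933), a secreted matrix protein also named punctin, had medians of 8.92 (diestrus), 9.12 (CEH), 8.89 (mucometra) and 7.59 (pyometra). The dogs with pyometra were spread from 6.04 to 9.65 in 2 stretches, with 10 dogs at 8.05 or below and 7 at 9.15 or above, and 8 of 17 lay under all 52 other dogs. The log2 fold change was -1.07 (SE 0.238, adjusted p = 0.000125) against the other dogs, -1.02 (SE 0.318, adjusted p = 0.00705) against diestrus and -1.27 (SE 0.359, adjusted p = 0.00522) against CEH. The second probe set gave -0.38 against the other dogs, -0.34 against diestrus and -0.47 against CEH. The mean of both probe sets was short of 2-fold in all of these comparisons, at -0.68 against diestrus. The fit with case number as a covariate gave -0.47 against diestrus (adjusted p = 0.488). ADAMTSL4, known in humans for lens dislocation, was lower in pyometra than in CEH by 0.51 and than in mucometra by 0.43 (adjusted p = 0.00396 and 0.00745), and ADAMTSL5 was higher than in the other dogs by 0.26 (adjusted p = 1.72e-05).

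**Figure D3:**
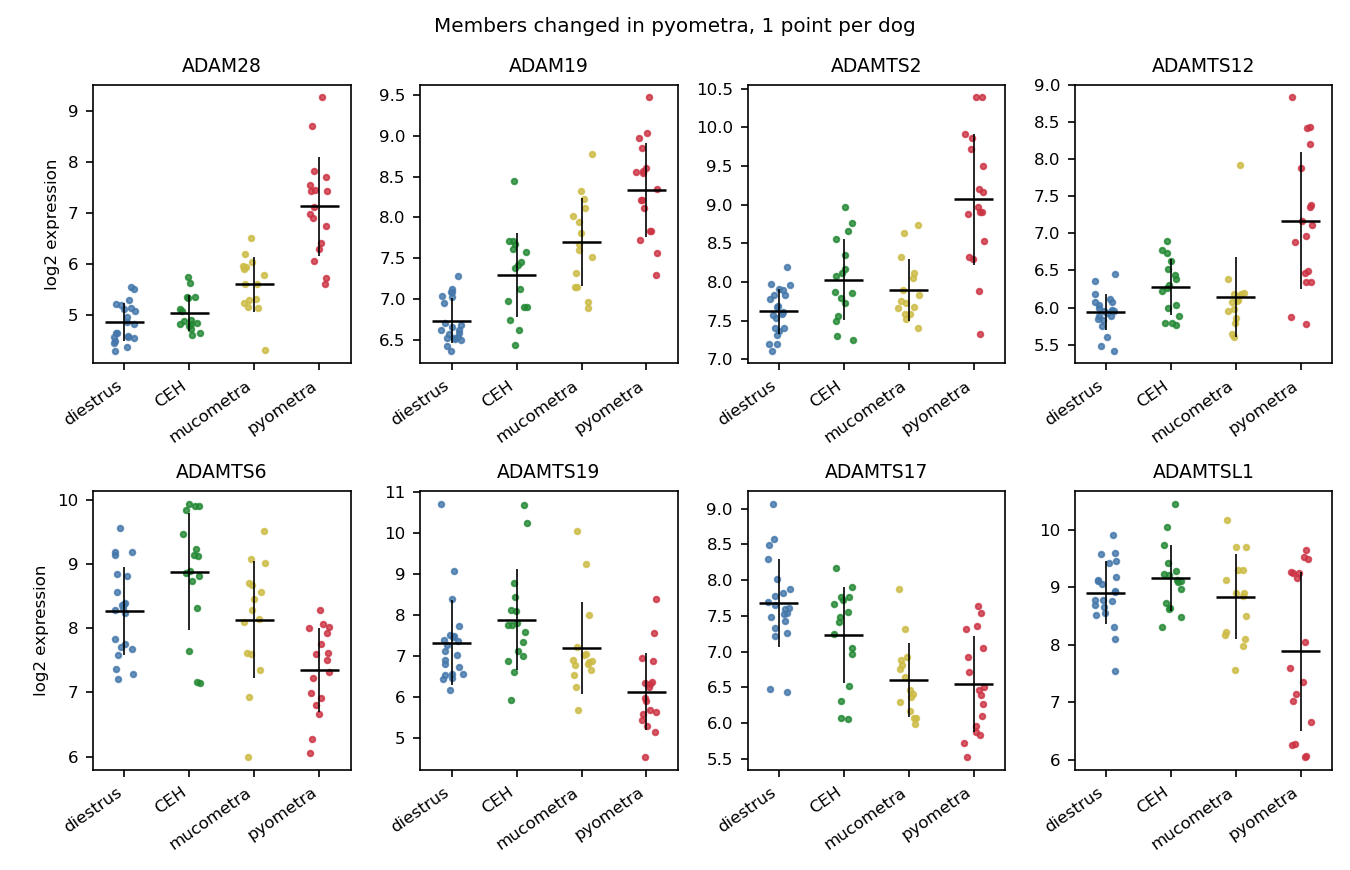
Log2 level in each dog, by diagnosis, of 8 members, ADAM28, ADAM19, ADAMTS2 and ADAMTS12 in the upper row and ADAMTS6, ADAMTS19, ADAMTS17 and ADAMTSL1 in the lower row, each panel with its own axis. Horizontal lines are group means and vertical lines 1 SD to either side. The upper genes are highest in pyometra and the lower ones lowest there, with ADAMTS17 as low in mucometra, and the dogs with pyometra fall into 2 stretches for ADAMTSL1.

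Pyometra was also set against mucometra and CEH singly. Against mucometra 3 members rose (ADAM28, ADAMTS2 and ADAMTS12) and 3 fell (ADAM22, ADAMTS19 and ADAMTSL3), at a background of 3.65% (2.82% higher and 0.834% lower). Against CEH 4 rose (ADAM19, ADAM28, ADAMTS2 and ADAMTS5) and 4 fell (ADAMTS6, ADAMTS19, ADAMTSL1 and ADAMTSL3), at a background of 5.95% (4.28% higher and 1.67% lower). ADAM28 and ADAMTS2 were higher, and ADAMTS19 lower, in pyometra in every comparison with another group.

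Several of these calls were lost with case number, the running number in the sample titles, as a covariate. Against the other dogs ADAM28, ADAMTS2 and ADAMTS19 kept their call. ADAM19 (0.92), ADAMTS5 (0.87), ADAMTS12 (0.93), ADAMTS6 (-0.76) and ADAMTSL1 (-0.999) were then short of 2-fold, with adjusted p from 2.59e-05 for ADAMTS12 to 0.0457 for ADAMTS5. Against diestrus ADAMTS12 (0.98, adjusted p = 0.0143), ADAMTS17, ADAMTS19 and ADAMTSL1 lost their call, so that 0 of the 3 falls remained. Against mucometra ADAMTS12 (0.90, adjusted p = 0.012) did, and against CEH ADAMTS2 (0.997, just short of 2-fold, adjusted p = 0.016), ADAMTS5, ADAMTSL1 (-1.03, adjusted p = 0.0947) and ADAMTSL3 (-0.75, adjusted p = 0.32). Case number went with diagnosis, and every dog with pyometra except dog 100 had a higher number than all dogs in diestrus. Number and diagnosis can hardly be told apart there, and the part of case number in these differences was not tested.

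The members varied more from dog to dog in pyometra than in diestrus. The SD among the 17 dogs with pyometra exceeded that among the 21 dogs in diestrus in 36 of 42 members (85.7%), against 65.8% of all genes, and the median ratio of the SDs was 1.42 for members and 1.18 for all genes. The ratio was largest for ADAMTS12, at 3.72, and ADAMTS16, at 3.33. For ADAMTS5 it was 1.11. CEH and mucometra were not part of that count, and the spread was not widest in pyometra for every member. In CEH, mucometra and pyometra the SD of ADAMTS12 was 0.375, 0.536 and 0.921. That of ADAMTS5 was 1.19, 0.85 and 0.624. Of the 8 members called in pyometra against the other dogs, a dog with pyometra lay beyond all 52 other dogs, in the direction of the call, in 0 to 6 with a median of 3. The dogs of case numbers 206 and 228 did so in 6, and those of case numbers 207 and 213 in 0.

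Markers of immune cells moved with pyometra. The mean of the 10 measured neutrophil markers, set against their own means in the same way, was -0.62 ± 0.26 (SD, n = 21) in diestrus, -0.47 ± 0.24 (SD, n = 16) in CEH, -0.28 ± 0.26 (SD, n = 15) in mucometra and 1.45 ± 1.14 (SD, n = 17) in pyometra, where dogs ran from -0.48 to 3.20. Dog 100 was the lowest of the 17, at -0.48. The other groups ran from -1.08 to -0.20, -0.86 to 0.02 and -0.68 to 0.21. Of the 17 dogs 13 lay above all other dogs for that list, whose highest other dog was at 0.21. The 10 macrophage and monocyte markers had means of -0.78, -0.48, -0.01 and 1.42 in the same order, with 12 of 17 dogs with pyometra above all others, and all 10 rose against diestrus. The 10 B and plasma cell markers had means of -0.57, -0.27, -0.12 and 1.06, with 6 of 10 called higher, and the 11 T and NK cell markers -0.61, -0.23, 0.34 and 0.67, with 6 of 11 called higher. Against diestrus, 6.72% of all genes and 6 of the 10 neutrophil markers were called higher. MPO, a neutrophil granule enzyme made in the bone marrow, was not, with medians of 5.15 in diestrus and 5.3 in pyometra. The part of these cells in the rises of ADAM28, ADAM19, ADAMTS2 and ADAMTS12 was not tested.

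**Figure D4:**
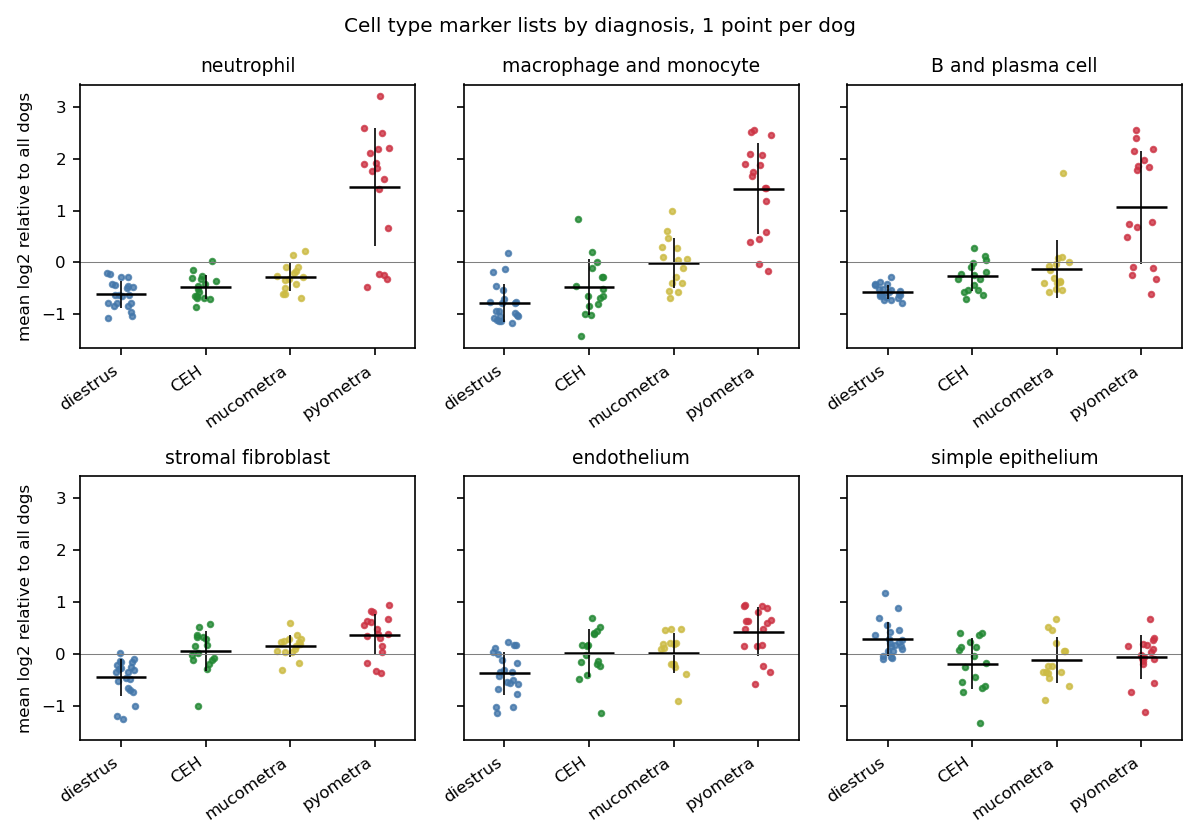
Mean log2 level of 6 lists of cell type markers in each dog, each gene set against its own mean of the 69 dogs, by diagnosis. Horizontal lines are group means and vertical lines 1 SD to either side. The immune lists are highest in pyometra, where dogs ran from -0.48 to 3.20 for neutrophil markers, and the stromal list is lowest in diestrus, at a mean of -0.45.

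Inhibitors, processing proteins and targets of these proteases were taken from lists of related genes. Of 7 measured inhibitors and clearance receptors, 3 rose and 1 fell in pyometra against diestrus, where 9.98% of all genes were called (6.72% higher and 3.26% lower). TIMP1, a tissue inhibitor of metalloproteinases that blocks ADAM10 among others, ran from 7.77 to 9.24 in diestrus and from 9.11 to 11.85 in pyometra, with medians of 8.56 and 10.72, and rose by 2.16 (SE 0.186, adjusted p = 2.61e-12). TIMP2 rose by 1.26 (SE 0.145) and TIMP4 by 1.19 (SE 0.152), while the endocytic receptor LRP2 fell by 1.53 on the log2 scale (SE 0.243). TIMP3, the inhibitor best known for blocking ADAM17 and the aggrecan-cleaving ADAMTS enzymes, had -0.68 (SE 0.173, adjusted p = 0.00114), short of 2-fold. In mucometra TIMP2 rose by 1.18 (SE 0.152), as did LRP1, the receptor that clears ADAMTS5 from the matrix, by 1.07 (SE 0.103).

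Of 16 measured genes for the maturation and transport of these proteases, 1 rose and 1 fell in pyometra against diestrus, 12.5% of them against the 9.98% of all genes. PCSK5, a proprotein convertase, rose by 1.02 (SE 0.154, adjusted p = 5.3e-07). TSPAN5, a tetraspanin that takes ADAM10 to the cell surface, fell by 1.25 on the log2 scale (SE 0.243, adjusted p = 3.61e-05). In CEH and in mucometra 0 of the 16 were called.

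Of 26 measured membrane proteins known to be shed by ADAMs, 10 rose and 0 fell in pyometra against diestrus, with a median log2 fold change of 0.73 against -0.05 for all genes, of which 6.72% rose and 3.26% fell. The largest rises were those of the adhesion molecule VCAM1 (4.03, SE 0.25), the hyaluronan receptor CD44 (3.59, SE 0.212), the growth factor NRG1 (2.57, SE 0.387) and the chemokine CXCL16 (2.29, SE 0.302). These 4 also rose in mucometra, by 2.22, 1.68, 2.02 and 1.50, and VCAM1 rose in CEH by 1.15. Leukocytes and endothelium also express several genes of this list.

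Of 25 measured matrix substrates and partners of ADAMTS and ADAMTSL proteins, 9 rose and 1 fell in pyometra against diestrus, at the same background, with a median of 0.70. VCAN, the proteoglycan versican that ADAMTS1, ADAMTS5 and ADAMTS9 cleave, had medians of 9.07 (diestrus), 9.655 (CEH), 10.34 (mucometra) and 10.94 (pyometra). It rose by 1.35 (SE 0.158, adjusted p = 1.25e-08) in mucometra and by 1.89 (SE 0.165, adjusted p = 3.42e-12) in pyometra, and had 0.75 (adjusted p = 0.0191) in CEH. TFPI2 rose by 5.56 (SE 0.327), the thrombospondin THBS1 by 1.96 (SE 0.186) and the proteoglycan BGN by 1.93 (SE 0.179), while FBN2, a fibrillin, fell by 1.61 on the log2 scale (SE 0.255). Of the 10 measured relatives outside the 3 families, 1 was called in pyometra against diestrus, the ADAMDEC1 described above.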

How the data were processed

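The 69 arrays measured endometrial RNA of 21, 16, 15 and 17 dogs, grouped by the diagnosis in the sample titles. The authors normalized the arrays together by RMA (background correction and quantile normalization, version not given in the sources used here) and deposited 1 log2 value per probe set. Values ran from -0.16 to 14.12 over 32391 probe sets. In the platform annotation 16545 probe sets carry 1 symbol, 370 several and 15476 none, and names were taken from the first kind. The 5 members with several probe sets were read from that of highest mean. All 42 members matched RefSeq genes of UU_Cfam_GSD_1.0, used for names and neighbours only.

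Comparisons were fitted with limma 3.58.1 (lmFit, eBayes) in R 4.3.3, with the groups compared in each fit, two-sided, and the calls were tested on simulated data. Drawings used Python 3.11.15 and matplotlib 3.10.9. Each dog is 1 sample, and precision is limited by how many arrays a group has. The alternatives were 1 joint fit, array weights, a variance trend with robust priors, no fold minimum, leaving out the lowest 25% of genes, the mean of probe sets, median centring, leaving out dogs 100 and 216, and case number as a covariate.

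The members and gene lists were chosen with earlier results of these data known. Named were every member past the threshold, the 3 of highest mean per family and up to 4 members of each related list with the largest change in pyometra against diestrus. ADAMDEC1, VCAN in other comparisons, TIMP3 and other members short of 2-fold were named after their values were seen. Dog protein sequences were not used here.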

Additional observations from a re-analysis of the deposited data

How the results depend on the processing

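Of 356 recomputed log2 fold changes of called members, 335 kept their call and 0 changed direction. The other 21 fell under the threshold, 15 of them with case number as a covariate and 6 with the mean of probe sets. Case number goes with diagnosis, from 6 to 170 in diestrus and from 100 to 231 in pyometra. These ranges overlap only through dog 100, since the next dog with pyometra has number 185. Case number and diagnosis can therefore hardly be told apart between these groups. With it as a covariate 4 members were called in pyometra against the other dogs in place of 8. Against diestrus 6 were called in place of 10, and against CEH 5 in place of 8. The totals against the other dogs and against CEH each include a member that was not called without the covariate. The cause was not tested. Without the fold minimum the counts were 31 in pyometra against the other dogs, 28 against diestrus, 22 against mucometra and 31 against CEH, 18 in CEH against diestrus and 23 in mucometra against diestrus, since this rule drops the 2-fold condition. All other alternatives gave counts within 1.5 times of those reported. Median centring moved the median of all genes by at most 0.04. ADAM28 was not tested when the lowest 25% of genes were left out, because its mean of 5.62 lies in it. No paired analysis was possible because every array came from a different dog. Members among the lowest 25%, 11 of 42, are where array background limits what can be seen.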
